A study of Rattus norvegicus with 46 samples.

Results

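The genes described here are the amino acid transporters of the SLC1, SLC3, SLC7, SLC36, SLC38 and SLC43 families in rat liver and quadriceps muscle. They were taken by name, as all genes whose symbol starts with Slc, 1 of these 6 family numbers and the letter a, at any level of expression. The rule found 43 of the 32552 genes of the table, and 42 of them are transporters. The other one, Slc7a6os, is a neighbour of Slc7a6 on the opposite strand that only shares its name, and it is kept as a gene with no transport role. Of the 43 genes, 32 reached a mean of 0.5 CPM, a gene's counts scaled to library depth, in at least 1 tissue. They comprised 26 in both tissues, 3 in liver only (Slc1a2, Slc1a6 and Slc7a10) and 3 in quadriceps only (Slc1a1, Slc1a7 and Slc36a2). The remaining 11 lay below this level in both tissues: Slc7a3, Slc7a9, Slc7a11, Slc7a12, Slc7a13, Slc7a14, Slc7a15, Slc36a3, Slc38a5, Slc38a8 and Slc38a11. None of these 11 passed the filter on low counts, so none was tested.

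The study asked how CagriSema lowers body weight in DIO (diet-induced obese) rats, and set the drug beside weight loss from eating less. CagriSema joins cagrilintide, an amylin analog, with the GLP-1 receptor agonist semaglutide. All rats were WT, and they received vehicle, food restriction that matched their weight to the drug group (weight matched), or CagriSema. Liver gave 8 libraries from vehicle rats, 8 from weight-matched rats and 7 from CagriSema rats. Quadriceps gave 7, 8 and 8 in that order. Treatment lasted 20 days according to the design text, which speaks of liver alone, so the duration for muscle was not taken from it. The sources used here give no strain, age or diet.

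Amino acids cross membranes through carriers that differ in the side chains they accept and in the force that drives them. System A and system N carriers and the SLC1 family pull amino acids in with sodium, exchangers swap 1 amino acid for another, and SLC43 and cationic carriers let them move down their gradients. Several SLC7 exchangers are light subunits that reach the cell surface only when paired with a heavy subunit of the SLC3 family. Liver takes up amino acids for glucose and urea synthesis, and muscle stores them as protein and releases glutamine and alanine when food is short.

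Library totals were 9888858 to 15948219 counts in the 23 liver libraries and 11462369 to 16525274 in the 23 quadriceps libraries. By counting error alone, 0 counts in a library allow a level of up to 0.188 to 0.303 CPM, depending on the library, in liver. In quadriceps this limit was 0.182 to 0.262 CPM. Both limits use plain library totals, without the scaling factors applied to the other CPM values. It is not stated that every library is a separate rat, so p-values measure the spread between libraries, which may be technical. The tissue labels matched their markers. The 8 hepatocyte markers summed to a median of 141172 CPM in liver vehicle libraries and 56.5 CPM in quadriceps vehicle libraries, and the 7 myofibre markers to 0.829 and 154428 CPM. Liver vehicle library 1 held 85.2 CPM of myofibre markers. Some vehicle libraries stood apart. Ribosomal protein genes took 1.97% of the counts of liver library 4, mitochondrially encoded genes took 9.29% of liver library 6, and the other 21 liver libraries held 0.694% to 1.002% and 4.09% to 5.81%. Quadriceps libraries 2 and 5 had ribosomal shares of 1.02% and 1.07% against 0.763% to 0.935% in the others. Values against vehicle were also computed leaving out libraries 4 and 6 of liver or 2 and 5 of quadriceps.

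Most of these transporters were found in both tissues, 26 of 32 at 0.5 CPM or more in each, and most differed in level. In vehicle rats, 28 of the 32 tested members passed the test of liver against quadriceps, 17 higher in liver and 11 higher in quadriceps. Over all genes the same test called 83.4%, with 43.4% higher in liver and 40% lower, so most genes differed between the tissues, transporters or not. The members' median log2 ratio of liver to quadriceps was 0.45, against 0.08 over all genes. A member that passed the filter on low counts through 1 tissue alone was bound to differ, so the count says little about the family. In weight-matched rats 30 members passed against 84.0% of all genes, and in CagriSema rats 29 members passed against 83.8%. Slc3a2 and Slc36a4 passed in none of the 3 groups. Because bulk tissue was sequenced, fewer cells of a type and less RNA per cell cannot be told apart.

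**Figure D1:**
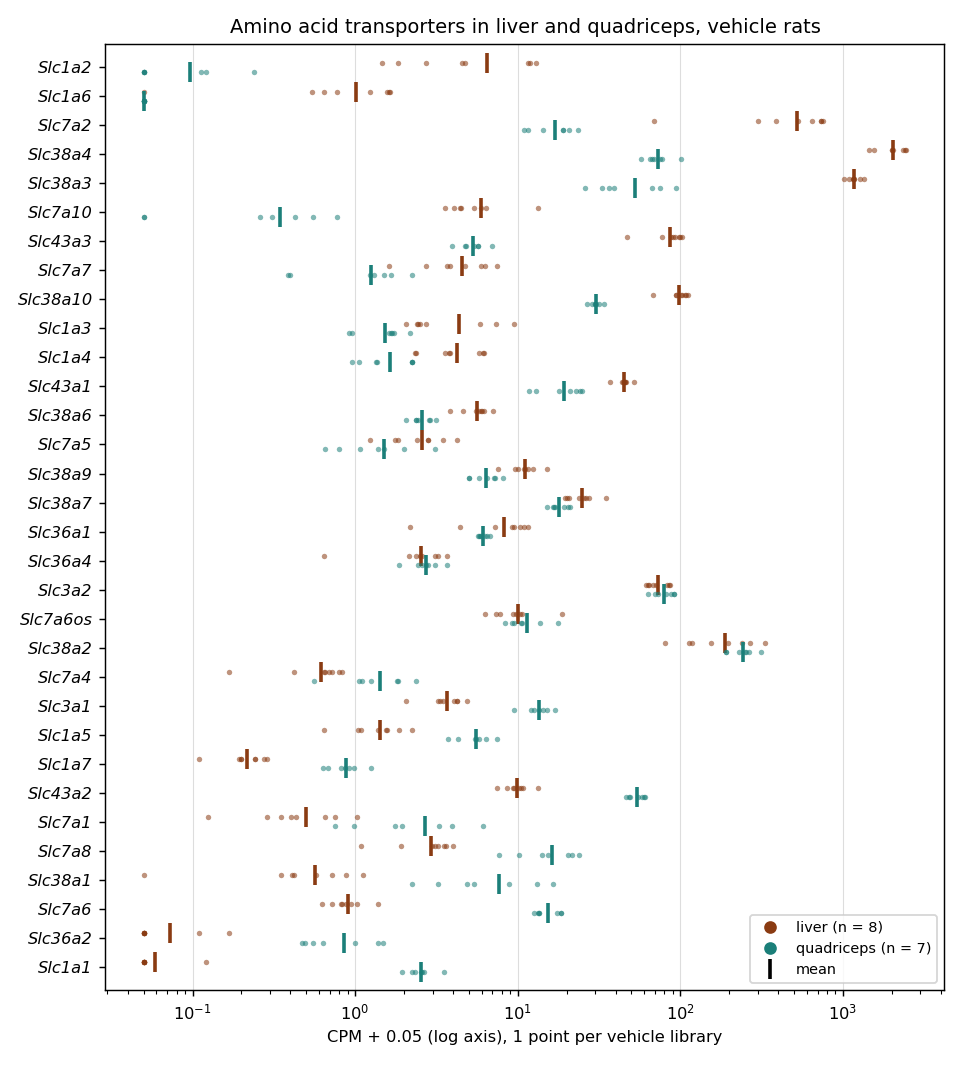
CPM + 0.05 (log axis) of the 32 members at or above 0.5 CPM, for 8 liver and 7 quadriceps vehicle libraries (points) with their means (ticks), ordered by the log2 ratio of liver to quadriceps. Genes at the top, such as Slc38a4 and Slc38a3, have liver points wholly above quadriceps points, and genes at the bottom, such as Slc1a1 and Slc7a6, the reverse.

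Liver and quadriceps differed in their sodium-coupled SLC38 carriers. Slc38a4, a system A carrier of alanine and other small neutral amino acids, ranged from 1456 to 2459 CPM in liver vehicle libraries (median 2024) and from 57.7 to 101 CPM in quadriceps (median 68.8). The liver to quadriceps log2 ratio was 4.79 ± 0.16 (SE, adjusted p = 1.23e-29). Slc38a3, the system N carrier of glutamine and histidine, ranged from 1024 to 1346 CPM in liver (median 1164) and from 25.9 to 93.6 CPM in quadriceps (median 39.3), a log2 ratio of 4.48 ± 0.19 (adjusted p = 5.81e-26). For both genes the lowest liver library lay above the highest quadriceps library. Slc38a1, another system A carrier, had the opposite preference, with 0 to 1.07 CPM in liver (median 0.448) and 2.18 to 16.4 CPM in quadriceps (median 5.35). It passed the filter on low counts through quadriceps alone, so its log2 ratio of -3.81 ± 0.44 is given as a description, with no test. Slc38a2, the system A carrier that cells raise when amino acids run short, was at 188 ± 86.6 CPM (SD, n = 8) in liver and 242 ± 44.2 CPM (n = 7) in quadriceps, and the groups overlapped. Its ratio did not pass (adjusted p = 0.0828). The other 4 SLC38 members tested were higher in liver. They were Slc38a6, Slc38a10, the lysosomal glutamine exporter Slc38a7, and Slc38a9, the lysosomal arginine carrier that feeds the mTORC1 sensor. Slc38a10 stood at 98.4 ± 13.99 CPM in liver and 30.1 ± 2.22 CPM in quadriceps, and Slc38a9 at 11.01 ± 2.19 and 6.36 ± 1.17 CPM. Slc38a6 was at 5.59 ± 0.997 and 2.54 ± 0.383 CPM, and Slc38a7 at 24.8 ± 5.09 and 17.9 ± 2.19 CPM.

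Among cationic amino acid carriers, Slc7a2 (CAT-2), which brings arginine, lysine and ornithine into hepatocytes, was the liver form. It ranged from 68.7 to 752 CPM in liver vehicle libraries (median 588) and from 10.96 to 23.3 CPM in quadriceps (median 18.9). The log2 ratio was 4.94 ± 0.31 (adjusted p = 4.23e-19), with every liver library above every quadriceps library. The low end of the liver range was library 4 alone, and the next liver value was 301 CPM. Slc7a1 (CAT-1), the carrier of arginine found in most other cells, went the other way, at 0.452 ± 0.288 CPM in liver and 2.64 ± 1.91 CPM in quadriceps. Slc7a4 was also higher in quadriceps, at 1.38 ± 0.611 against 0.565 ± 0.219 CPM.

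The heavy subunit Slc3a2 (4F2hc, CD98), which carries most light subunits to the surface, was at 73.0 ± 10.3 CPM in liver and 79.7 ± 11.03 CPM in quadriceps (log2 ratio -0.13 ± 0.11). Its light subunits differed between the tissues while this partner gave no call. Slc7a6 (y+LAT2), which exchanges cationic for neutral amino acids, ranged from 0.573 to 1.34 CPM in liver (median 0.805) and from 12.6 to 18.5 CPM in quadriceps (median 13.5). Its log2 ratio was -4.14 ± 0.17 (adjusted p = 3.70e-26), and the groups did not overlap. Slc7a8 (LAT2), an exchanger of large and small neutral amino acids, ranged from 1.04 to 3.96 CPM in liver (median 3.13) and from 7.68 to 23.8 CPM in quadriceps (median 15.3), a log2 ratio of -2.48 ± 0.21 (adjusted p = 3.82e-15). The related Slc7a7 (y+LAT1) had the other preference, at 4.49 ± 1.94 CPM in liver and 1.20 ± 0.668 CPM in quadriceps. Slc7a10 (Asc-1), which exchanges glycine, serine and alanine, ranged from 3.51 to 13.4 CPM in liver and from 0 to 0.727 CPM in quadriceps. It passed the filter on low counts through liver alone, so its log2 ratio of 4.22 ± 0.48 is a description and no test is given. Slc7a5 (LAT1), the exchanger that brings leucine into growing cells, was at 2.53 ± 0.986 CPM in liver and 1.45 ± 0.835 CPM in quadriceps, with a log2 ratio of 0.80 ± 0.36 (adjusted p = 0.0376) and groups that overlapped. It passed in 6 of 15 fits that left out 1 library, where the ratio ran from 0.66 to 1.09. The second heavy subunit, Slc3a1 (rBAT), known from kidney cystine uptake, was at 3.65 ± 0.863 CPM in liver and 13.4 ± 2.41 CPM in quadriceps. Its usual partner Slc7a9 was below 0.5 CPM in both tissues.

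The carriers of glutamate and aspartate were split by tissue. Slc1a2 (GLT-1), which in liver belongs to hepatocytes around the central vein, ranged from 1.42 to 12.9 CPM in liver vehicle libraries and had 698 counts over the 8 liver vehicle libraries and 5 over the 7 quadriceps vehicle libraries. That is a 123-fold ratio of CPM, with a 95% counting interval of 52.6 to 381. Slc1a1 (EAAT3) ranged from 1.89 to 3.46 CPM in quadriceps vehicle libraries and had 245 counts in quadriceps vehicle libraries and 1 in liver vehicle libraries. The ratio was 277, with an interval of 49.3 to 11004. Across all 46 libraries the Slc1a1 counts were 730 and 10, and the ratio was 70.5 (38.1 to 148). These pooled ratios use plain library totals, and their intervals cover counting error only. Slc1a6 (EAAT4) had 99 counts in liver vehicle libraries and 0 in quadriceps vehicle libraries, at least 29.1-fold higher in liver when 3 counts over the group are taken as the floor. Over all 46 libraries the counts were 294 and 0, at least 101.5-fold higher. Slc1a6 ranged from 0 to 1.59 CPM in liver vehicle libraries, and 20 of the 23 liver libraries held a count. The pooled floors do not describe that spread between libraries. Slc1a3 (EAAT1) was higher in liver (4.32 ± 2.84 against 1.49 ± 0.446 CPM) and Slc1a7 (EAAT5) in quadriceps (0.828 ± 0.206 against 0.168 ± 0.0559 CPM). The neutral exchangers of the same family diverged too. Slc1a4 (ASCT1), which swaps alanine, serine, cysteine and threonine, was at 4.21 ± 1.60 CPM in liver and 1.59 ± 0.584 CPM in quadriceps, a log2 ratio of 1.42 ± 0.25 (adjusted p = 1.26e-06). Slc1a5 (ASCT2), which also takes glutamine, was at 1.37 ± 0.502 CPM in liver and 5.46 ± 1.25 CPM in quadriceps.

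SLC43 proteins let large neutral amino acids move down their gradient, except Slc43a3, which is known as a carrier of purine bases. Slc43a2 (LAT4) ranged from 7.45 to 13.3 CPM in liver and from 46.3 to 60.7 CPM in quadriceps (log2 ratio -2.44 ± 0.13, adjusted p = 3.06e-22). Slc43a1 (LAT3) stood the other way round, at 45.0 ± 4.09 CPM in liver and 19.3 ± 5.27 CPM in quadriceps. Slc43a3 ranged from 47.2 to 102 CPM in liver and from 3.88 to 6.92 CPM in quadriceps (log2 ratio 4.04 ± 0.16, adjusted p = 4.84e-27). For none of the 3 did the 2 tissues overlap. Of the proton-coupled carriers, the lysosomal Slc36a1 (PAT1) was at 8.14 ± 3.33 CPM in liver and 6.08 ± 0.406 CPM in quadriceps, and Slc36a2 at 0.0223 ± 0.0441 and 0.811 ± 0.435 CPM. Slc36a4 was at 2.48 ± 0.916 and 2.70 ± 0.569 CPM. Slc7a6os, which is no transporter, was at 9.99 ± 3.88 and 11.3 ± 3.30 CPM.

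Members also differed in how much they varied between libraries of 1 group. In liver vehicle libraries, for the 28 members with a group mean of at least 0.5 CPM, the coefficient of variation ran from 8.49% for Slc38a3 to 75.7% for Slc1a2. In quadriceps vehicle libraries, over 29 such members, it ran from 6.68% for Slc36a1 to 72.6% for Slc7a1. The median was 36.7% in liver and 22.9% in quadriceps. Genes with few counts vary more through counting error alone.

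Food restriction to a matched weight changed 4 transporters in liver. Slc1a4, Slc7a10 and Slc38a3 fell and Slc7a5 rose, among 28 members tested. This was 1 of 28 higher against 2.49% of all genes, and 3 of 28 lower against 4.53% of all genes, with 7.02% of all genes called in either direction. The members' median log2 fold change was -0.08, against -0.01 over all genes, and 6 members had an unadjusted p under 0.05.

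The promoters of the called members with an entry in RefSeq are shown to let a reader see their sequence, 3 for liver and that of Slc43a2 for quadriceps. Each is the 250 bases before the gene's start in assembly GRCr8, on the gene's own strand. They lie at chr14:98761563-98761812 (minus strand) for Slc1a4, chr19:66872413-66872662 (minus strand) for Slc7a5, chr1:96965872-96966121 (plus strand) for Slc7a10 and chr10:60874588-60874837 (plus strand) for Slc43a2. Capitals mark matches to the motifs searched.
Slc1a4: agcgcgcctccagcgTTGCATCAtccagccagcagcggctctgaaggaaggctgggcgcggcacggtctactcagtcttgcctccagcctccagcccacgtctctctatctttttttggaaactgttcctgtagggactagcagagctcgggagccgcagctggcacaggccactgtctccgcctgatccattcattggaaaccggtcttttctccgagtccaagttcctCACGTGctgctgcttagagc
Slc7a5: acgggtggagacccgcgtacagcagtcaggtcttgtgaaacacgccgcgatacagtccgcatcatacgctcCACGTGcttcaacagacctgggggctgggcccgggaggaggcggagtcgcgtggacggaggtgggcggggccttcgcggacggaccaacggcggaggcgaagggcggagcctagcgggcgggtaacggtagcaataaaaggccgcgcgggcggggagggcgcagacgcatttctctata
Slc7a10: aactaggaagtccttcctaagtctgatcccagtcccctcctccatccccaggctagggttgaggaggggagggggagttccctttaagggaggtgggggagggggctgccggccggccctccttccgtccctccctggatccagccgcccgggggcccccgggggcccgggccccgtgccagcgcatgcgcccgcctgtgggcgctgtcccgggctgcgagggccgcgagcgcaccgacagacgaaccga
Slc43a2: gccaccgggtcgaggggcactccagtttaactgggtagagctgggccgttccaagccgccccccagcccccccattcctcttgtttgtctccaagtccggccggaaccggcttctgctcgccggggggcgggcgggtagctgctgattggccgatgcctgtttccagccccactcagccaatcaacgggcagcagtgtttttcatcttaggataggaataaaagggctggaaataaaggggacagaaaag
Searching both strands of 300-base windows, 250 before and 50 after each start, found TGATGNAA, the core of the element that ATF4 and its partners bind in amino acid response genes, in Slc1a4, Slc38a1 and Slc7a1. That is 3 of the 33 members with an entry, and 3.98% of all 33469 windows held it. In Slc1a4 the match starts 235 bases before the gene's start. The E-box CACGTG, bound by MYC and other helix-loop-helix factors, was in 8 of the 33 members, Slc1a4 and Slc7a5 among them, and in 6.42% of all windows. Its match starts 20 bases before the start of Slc1a4 and 179 bases before that of Slc7a5. The longer GTCACGTG, which contains the E-box and is bound by TFEB, was in Slc36a1 and Slc43a1 (1.85% of all windows). TGACGTCA was in Slc38a6 (1.83%), TGACTCA in Slc3a1 (4.63%), and TGACGCAAT in no member (0.1%). A match is a string of letters in this window and shows no binding.

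Slc1a4 (ENSRNOG00000005248) ranged from 2.29 to 6.18 CPM in liver vehicle libraries (median 3.76), from 1.89 to 3.06 CPM in weight-matched libraries (median 2.22) and from 2.82 to 4.47 CPM with CagriSema (median 3.20). The weight-matched values were the lowest of the 3 groups and their spread was narrow, with an overlap with vehicle at the lower end. The log2 fold change of weight-matched against vehicle rats was -0.82 ± 0.21 (SE, adjusted p = 0.0171). It passed in all 16 fits that left out 1 library and in the 5 other settings, and was -0.89 without vehicle libraries 4 and 6.

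Slc7a10 (ENSRNOG00000010938) ranged from 3.51 to 13.4 CPM in vehicle (median 4.88), from 2.09 to 3.73 CPM in weight-matched (median 3.02) and from 1.93 to 5.21 CPM in CagriSema libraries (median 4). Vehicle library 4 alone gave the high end, with the next vehicle value at 6.33 CPM, and the groups overlapped only at 3.51 to 3.73 CPM. The log2 fold change was -1.01 ± 0.25 (adjusted p = 0.0176). Without library 4 it was -0.74 (adjusted p = 0.0211), and without libraries 4 and 6 it was -0.66 (adjusted p = 0.0463).

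Slc38a3 (ENSRNOG00000016827), the glutamine carrier, ranged from 1024 to 1346 CPM in vehicle (median 1164), from 872 to 1101 CPM in weight-matched (median 989) and from 838 to 1096 CPM in CagriSema libraries (median 1035). The change was small beside its level, and the ends of the groups overlapped. The log2 fold change was -0.28 ± 0.07 (adjusted p = 0.0259). It missed the threshold without vehicle library 6 (-0.26, adjusted p = 0.0550) and without weight-matched library 25 (-0.26, adjusted p = 0.0564) or 26 (-0.27, adjusted p = 0.0535). Without libraries 4 and 6 together it was -0.22 (adjusted p = 0.0492). The call was also lost without the filter on low counts and when only the 2 groups compared were fitted.

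Slc7a5 (ENSRNOG00000018824), the leucine exchanger, went up. It ranged from 1.18 to 4.20 CPM in vehicle (median 2.56), from 3.04 to 10.6 CPM in weight-matched (median 4.52) and from 1.66 to 7.52 CPM in CagriSema libraries (median 4.68). The weight-matched and vehicle ranges overlapped. The log2 fold change was 1.02 ± 0.31 (adjusted p = 0.0499), at the edge of the threshold. It passed in 3 of 16 fits that left out 1 library, where it ran from 0.79 to 1.16, and was 0.84 (adjusted p = 0.128) without libraries 4 and 6. It also missed the threshold without the filter on low counts and when only the 2 groups compared were fitted.

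**Figure D2:**
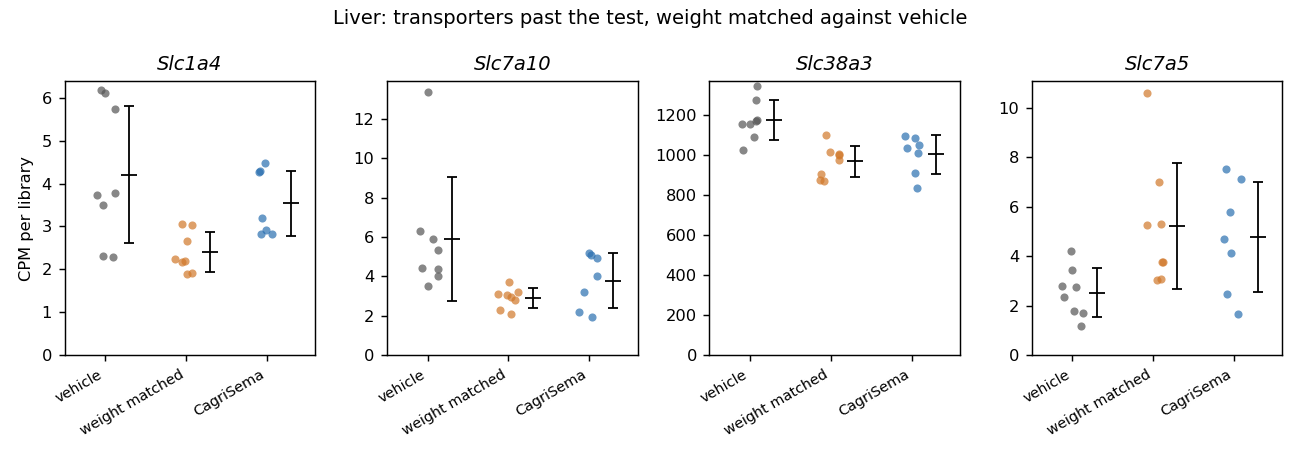
CPM per liver library (points) of the 4 transporters past the test for weight matching, by treatment, with mean ± SD beside the points; the vertical axis starts at 0. Weight-matched libraries lie low for Slc1a4, Slc7a10 and Slc38a3 and high for Slc7a5, and for each of the 4 the CagriSema mean lies between the other 2 group means, with single CagriSema libraries outside them.

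The heavy subunit Slc3a2 gave no call beside its light subunits Slc7a5 and Slc7a10, with a log2 fold change of 0.08 ± 0.12 (adjusted p = 0.698). Slc7a2 was at 520.3 ± 248 CPM in vehicle and 435 ± 92.8 CPM in weight-matched livers and did not pass (log2 fold change -0.26 ± 0.29). Without libraries 4 and 6 its log2 fold change was -0.54 ± 0.18 (adjusted p = 0.0645). Slc38a4 was at 2036 ± 377 and 1788 ± 302 CPM, with a log2 fold change of -0.19 ± 0.13. Slc38a2 was at 188 ± 86.6 and 196 ± 50.7 CPM.

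Some enzymes that break down amino acids fell in the same livers. Of 30 tested genes of amino acid breakdown and the urea cycle, 10 fell, where 4.53% of all genes fell, 1 (Glud1) rose and 19 did not pass, with a median log2 fold change of -0.27 against -0.01 over all genes. Oat, ornithine aminotransferase, changed by -1.59 ± 0.23 (adjusted p = 0.000782), and Agxt, which handles alanine and glyoxylate, by -1.21 ± 0.22 (adjusted p = 0.00164). Without libraries 4 and 6, 6 fell and 1 rose. Of 20 tested genes of the ATF4 amino acid response, 3 fell and 1 rose (median -0.11). Atf5, a transcription factor of that response, changed by -1.05 ± 0.19 (adjusted p = 0.00153) and Phgdh, the first enzyme of serine synthesis, by 2.64 ± 0.64 (adjusted p = 0.0142). Of 24 tested genes that sense amino acids for mTORC1, Sesn2, a leucine sensor, fell (-0.51 ± 0.13, adjusted p = 0.0230) and none rose. These lists were drawn up with earlier results of these data known, so their counts are no independent evidence of direction.

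Other amino acid carriers gave no call. By edgeR, none of the 6 tested plasma membrane transporters outside these families passed, with 2 at an unadjusted p under 0.05 and 1 called by DESeq2. None of 10 mitochondrial carriers passed, with 1 at an unadjusted p under 0.05 and 1 called by DESeq2. None of 6 other lysosomal transporters passed, with 1 at an unadjusted p under 0.05 and 0 called by DESeq2.

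Cell type markers moved as well in these livers. The 8 hepatocyte markers summed to 115970 to 179704 CPM in vehicle, highest in library 4, and to 106249 to 132801 CPM in weight-matched libraries, and 2 of the 8 fell. Of 4 tested red blood cell markers 3 fell (Hba-a2, Hbb and Alas2). The other, Slc4a1, was not called and its mean went the opposite way, from 4.74 CPM in vehicle to 8.06 CPM in weight-matched libraries. The sum of the 4 was 125 to 735 CPM in vehicle, again highest in library 4, and 61.9 to 137 CPM in weight-matched libraries. Of 9 periportal hepatocyte markers 4 fell (Sds, Gls2, Asl and Ass1), all of them already counted among the breakdown genes, so they are no separate shift. Of 8 tested perivenous markers Oat, also a breakdown gene, and Gulo fell and Cyp2e1 rose. Of 9 stellate cell and fibroblast markers 1 rose. The part of these shifts in the transporter results was not tested. The 10 macrophage markers gave no call, and their sum was 95.9 to 765 CPM in vehicle and 188 to 528 CPM in weight-matched libraries.

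CagriSema gave no call among the transporters of liver. Against vehicle, edgeR's quasi-likelihood test called 0 of 28 members, 5 had an unadjusted p under 0.05, and DESeq2 called 0. The same comparison called 0.354% of all genes. The members' median log2 fold change was -0.01, against -0.02 over all genes. Slc43a1 had the lowest p. It ranged from 36.9 to 51.9 CPM in vehicle (median 45.5) and from 28.3 to 48.6 CPM with CagriSema (median 37.3), with overlapping groups and a log2 fold change of -0.32 ± 0.11 (adjusted p = 0.158). The 4 members called with weight matching had CagriSema log2 fold changes of -0.26 ± 0.21 for Slc1a4, -0.23 ± 0.08 for Slc38a3, -0.63 ± 0.26 for Slc7a10 and 0.90 ± 0.32 for Slc7a5, none past the threshold. Both comparisons use the same vehicle libraries. Of 24 genes of amino acid sensing and 20 of the ATF4 response edgeR called 0, with 6 and 3 at an unadjusted p under 0.05 and 0 called by DESeq2 in each list. Of 30 breakdown genes edgeR called 0, with 14 at an unadjusted p under 0.05 and 3 called by DESeq2. In the same comparison 1 of 9 periportal and 1 of 8 hepatocyte markers fell, and 1 of 9 stellate cell and fibroblast markers rose.

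Against weight-matched rats, which lost weight without the drug, CagriSema again gave 0 calls among 28 members in liver, with 2 at an unadjusted p under 0.05 and 0 by DESeq2. Over all genes 0.535% were called. The members' median log2 fold change was 0.07, against 0.00 over all genes. Slc1a4 had the lowest p, with a log2 fold change of 0.56 ± 0.21 (adjusted p = 0.274). The groups overlapped, since the highest weight-matched library (3.06 CPM) lay above the lowest CagriSema library (2.82 CPM). When only these 2 groups were fitted, the adjusted p was 0.0450. Flcn, which controls mTORC1 at the lysosome, was the 1 gene of the 24 in the sensing list that changed. It was at 55.2 ± 6.01 CPM in weight-matched and 40.7 ± 5.24 CPM in CagriSema livers (log2 fold change -0.44 ± 0.09, adjusted p = 0.0195).

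In quadriceps, weight matching changed 2 transporters of 29 tested, against 2.29% of all genes. Slc7a2, the carrier of arginine and lysine, rose, and Slc43a2, a carrier of branched-chain amino acids and phenylalanine, fell. At an unadjusted p under 0.05 there were 10 members, and the median log2 fold change was -0.03, against -0.01 over all genes.

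Slc7a2 (ENSRNOG00000011016) ranged from 10.96 to 23.3 CPM in vehicle (median 18.9), from 25.3 to 46.8 CPM in weight-matched (median 39.6) and from 13.6 to 33.02 CPM in CagriSema libraries (median 23.0). Every weight-matched library lay above every vehicle library, and CagriSema libraries overlapped both groups. The log2 fold change was 1.12 ± 0.19 (adjusted p = 0.00736), and it passed in all 15 fits that left out 1 library. Without vehicle libraries 2 and 5 it was 0.998 ± 0.212 and missed the threshold (adjusted p = 0.0559). In that fit 19 genes in all were called, against 285 with every library.

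Slc43a2 (ENSRNOG00000003835) ranged from 46.3 to 60.7 CPM in vehicle (median 55.1), from 30.5 to 49.98 CPM in weight-matched (median 41.7) and from 35.2 to 56.4 CPM in CagriSema libraries (median 44.0). The vehicle and weight-matched groups overlapped between 46.3 and 49.98 CPM. The log2 fold change was -0.39 ± 0.10 (adjusted p = 0.0414). It passed in 6 of 15 fits that left out 1 library, with -0.44 to -0.34, and was -0.36 (adjusted p = 0.190) without libraries 2 and 5. The call was lost without vehicle library 2, 5 or 6 or weight-matched library 25, 26, 28, 29, 30 or 31. It was also lost without the filter on low counts and when only the 2 groups compared were fitted.

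**Figure D3:**
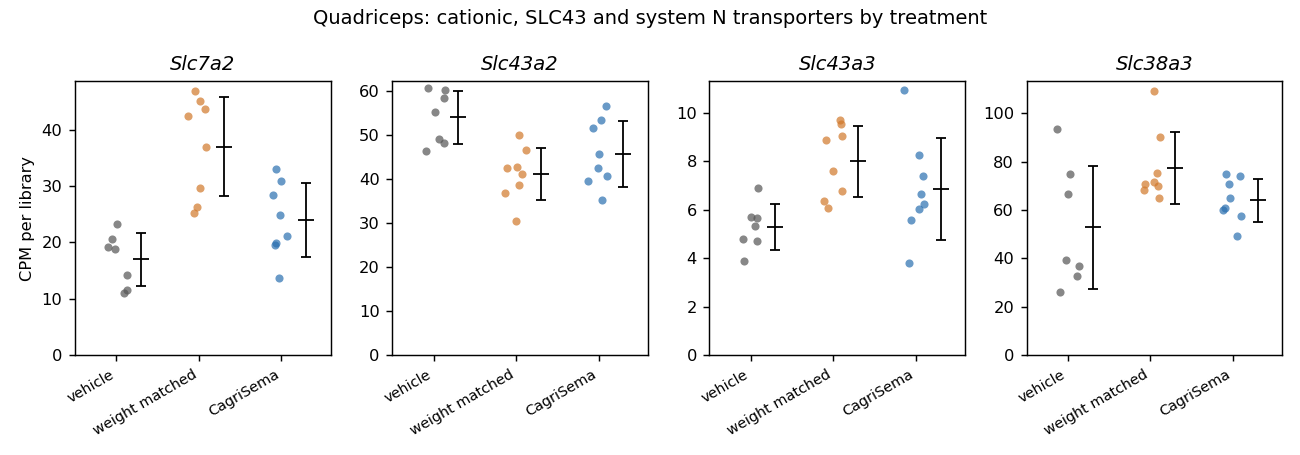
CPM per quadriceps library (points) of 4 transporters by treatment, with mean ± SD beside the points; the vertical axis starts at 0. For Slc7a2 the weight-matched libraries (25.3 to 46.8 CPM) lie wholly above the vehicle libraries (10.96 to 23.3 CPM), while the groups overlap for Slc43a2, Slc43a3 and Slc38a3.

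Other members of quadriceps stayed short of the threshold. Slc43a3 was at 5.29 ± 0.959 CPM in vehicle and 8.01 ± 1.48 CPM in weight-matched muscle (log2 fold change 0.60 ± 0.17, adjusted p = 0.0565). Slc38a3 was at 52.8 ± 25.5 and 77.5 ± 14.9 CPM (0.56 ± 0.21, adjusted p = 0.148), and its vehicle values fell into 25.9 to 39.3 CPM in 4 libraries and 66.6 to 93.6 CPM in 3. Slc1a5 was at 5.46 ± 1.25 and 3.69 ± 0.763 CPM (-0.56 ± 0.21, adjusted p = 0.130). Slc7a5 was at 1.45 ± 0.835 and 0.757 ± 0.487 CPM, and Slc7a1 at 2.64 ± 1.91 and 1.45 ± 0.515 CPM. The highest vehicle values of Slc7a5 and Slc7a1 were those of libraries 5 and 2.

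The transcript of Glul, glutamine synthetase, rose in the same muscles. It was at 971 ± 238 CPM in vehicle and 1675 ± 390 CPM in weight-matched quadriceps (log2 fold change 0.79 ± 0.14, adjusted p = 0.00975), the 1 gene called of 12 branched-chain and glutamine enzymes. It was called without libraries 2 and 5 as well (0.79, adjusted p = 0.0457). Of 25 tested amino acid sensing genes Sesn1 alone changed (0.33 ± 0.08, adjusted p = 0.0362), and it missed the threshold without those libraries (adjusted p = 0.199). Of 17 ATF4 response genes edgeR called 0, with 2 at an unadjusted p under 0.05 and 0 by DESeq2. Of the 9 stellate cell and fibroblast markers 2 fell, Col3a1 and Col1a1. The 9 summed to 4025 to 7159 CPM in vehicle, highest in library 2, and to 4373 to 5174 CPM in weight-matched libraries. Most of that sum was 1 gene, Des, with a mean of 4185 CPM in both groups. Dcn (189 and 187 CPM), Pdgfra (18.1 and 16.7 CPM) and Pdgfrb (19.2 and 17.6 CPM) had slightly lower means without a call. Lrat had a higher one (1.01 and 1.135 CPM), also without a call. Of the 7 myofibre markers 1 rose (Tnni2), and their sum was 118302 to 168422 and 150253 to 206637 CPM. The list did not move in 1 direction. Means of Myh7 (2962 and 1524 CPM) and Mb (5819 and 5067 CPM) were lower in weight-matched than in vehicle muscle without a call, and the means of the rest were higher. Without libraries 2 and 5 no marker of either list passed by edgeR. Whether these shifts contributed to the transporter values was not tested.

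CagriSema gave no call among the transporters of quadriceps either. Against vehicle edgeR called 0 of 29 members, with 5 at an unadjusted p under 0.05 and 0 by DESeq2, where 0.0321% of all genes were called. The median log2 fold change was 0.01, against -0.01 over all genes. Slc38a10 had the lowest p, at 30.1 ± 2.22 CPM in vehicle and 27.03 ± 2.64 CPM with CagriSema (log2 fold change -0.16 ± 0.06, adjusted p = 0.364). Slc7a2 stood at 0.49 ± 0.19 (adjusted p = 0.364). Against weight-matched rats edgeR called 0 of 29 members, with 1 at an unadjusted p under 0.05 and 0 by DESeq2, where 0.128% of all genes were called. The median was -0.03, against 0.00 over all genes. That 1 member was Slc7a2, with a log2 fold change of -0.64 ± 0.18 (adjusted p = 0.296). In both comparisons so few genes passed in all that a member's failure to pass says little about its level.

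Food restriction moved 4 transporters differently in liver and quadriceps in a fit that did not pair their libraries. The test was the interaction of tissue and treatment over all 46 libraries, as the log2 response in liver minus that in quadriceps, and it called 4 of 32 members against 2.76% of all genes. Slc7a5 differed by 1.95 ± 0.52 (adjusted p = 0.0280), with log2 responses of 1.02 in liver and -0.94 in quadriceps. Slc7a2 differed by -1.38 ± 0.37 (adjusted p = 0.0305), with -0.26 in liver and 1.12 in quadriceps. Slc38a3 differed by -0.83 ± 0.22 (adjusted p = 0.0320), with -0.28 in liver and 0.56 in quadriceps. Slc43a3 differed by -0.72 ± 0.20 (adjusted p = 0.0372), with -0.13 in liver and 0.60 in quadriceps. Thus the glutamine carrier, the cationic carrier and Slc43a3 had the lower response in liver, and the leucine exchanger the higher. Of the 28 other members none passed, among them Slc1a4, Slc7a10 and Slc43a2, whose changes in 1 tissue were therefore not shown to differ from those in the other. The members' median was -0.03, against 0.02 over all genes.

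**Figure D4:**
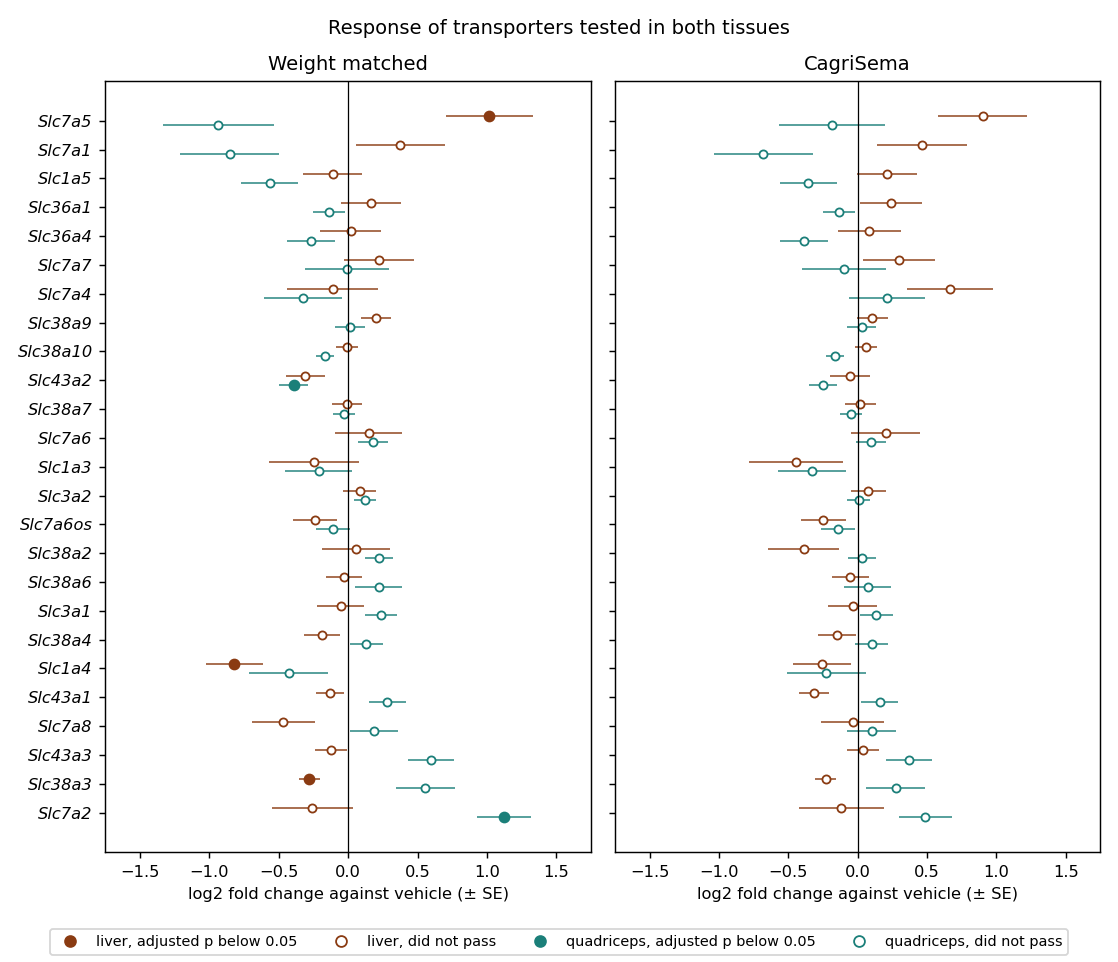
Log2 fold change against vehicle (± SE) of the 25 members tested in both tissues, for weight matching (left) and CagriSema (right), in liver and quadriceps; filled points passed the test within that tissue. Slc7a5 at the top and Slc7a2, Slc38a3 and Slc43a3 at the bottom of the left panel are the members whose responses to weight matching differed between tissues.

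The calls changed with the setting and when libraries were left out. With the library number shared by liver and quadriceps fitted as a block, Slc7a2 (-1.10, adjusted p = 0.170 by edgeR) and Slc43a3 (-0.67, adjusted p = 0.0848) missed the threshold. Both also missed it without the filter on low counts. Slc7a5 and Slc38a3 passed in these 2 settings. Without liver libraries 4 and 6 and quadriceps libraries 2 and 5 together, Slc7a2 (-1.53, adjusted p = 0.00274) and Slc43a3 (-0.86, adjusted p = 0.0161) passed, and Slc7a5 (1.29, adjusted p = 0.270) and Slc38a3 (-0.54, adjusted p = 0.169) did not. With quadriceps vehicle library 2 alone left out, Slc7a5 (1.87), Slc7a2 (-1.34) and Slc38a3 (-0.71) all missed, at adjusted p of 0.0507, 0.0507 and 0.0517. With quadriceps vehicle library 5 left out they were 1.66, -1.31 and -0.74, at 0.0783, 0.0570 and 0.0624. Slc7a5 also missed without liver weight-matched library 31 (1.73, adjusted p = 0.0509), and Slc38a3 without liver vehicle library 6 (-0.82) or quadriceps weight-matched library 25 (-0.75) or 26 (-0.80). Slc43a3 passed in 19 of 31 fits that left out 1 library, with -0.81 to -0.66. Liver vehicle library 1 held the myofibre signal given above, whose part here was not tested.

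For CagriSema the same interaction called 0 of 32 members by edgeR and 0 by DESeq2, with 7 at an unadjusted p under 0.05, and 0.149% of all genes. The median was 0.07, against 0.02 over all genes. Slc1a7, a glutamate carrier, had the lowest p, at 1.44 ± 0.47 (adjusted p = 0.146). It passed the filter on low counts through quadriceps alone and was not tested within liver, so this value is best read as a description. Its levels were 0.168 ± 0.0559 CPM in vehicle and 0.411 ± 0.107 CPM in CagriSema livers, with 0.828 ± 0.206 and 0.742 ± 0.301 CPM in quadriceps. The liver values lie near the level that a few counts give. Among the other lists, the weight-matching interaction called 1 of 10 mitochondrial carriers, the glycine carrier Slc25a38 (-0.49 ± 0.13, adjusted p = 0.0255). Of 21 ATF4 response genes it called Atf5 (-0.84 ± 0.23, adjusted p = 0.0360). Of 30 breakdown genes it called 3, Oat (-1.88 ± 0.25, adjusted p = 1.62e-05), Cps1 (4.33 ± 1.54) and Got1 (-1.10 ± 0.32). Markers were called too, among them Myh4 (-6.19 ± 1.30) and Alb (4.39 ± 1.29). In liver, Myh4 averaged 4.67 CPM in vehicle and 0.074 CPM in weight-matched libraries. In quadriceps, Alb averaged 4.79 and 0.192 CPM and Cps1 0.344 and 0.01 CPM. The Myh4, Alb and Cps1 calls rest on low levels in 1 tissue, whose source was not tested.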

How the data were processed

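RNA of liver and quadriceps was extracted with the RNeasy Minikit and made into libraries with a Twist UMI system, per the labels' protocols. The authors deposited 1 table of counts per gene, trimmed with fastp 0.23.1 and aligned with STAR 2.5.2b per the submitters' processing notes. Counter, genome build, annotation and UMI use: not given in the sources used here. Groups came from the labels, and 1 count column that matched no sample was not used. Deposited counts were fitted per tissue (3 groups) and jointly (46 libraries) with edgeR 4.0.16 in R 4.3.3: filterByExpr, TMM scaling, robust quasi-likelihood test, Benjamini-Hochberg adjustment over 12702 liver, 12471 quadriceps or 14110 joint genes, threshold 0.05. CPM uses library totals times TMM factors, except in the limits for 0 counts and the pooled ratios, which use plain totals. No gene lengths were used, so levels are not compared between genes. Fold changes are given ± SE. Alternatives were DESeq2 1.42.0, other scaling, no filter, fits of only the groups compared, a replicate block and left-out libraries. The fits were also run on simulated counts with seeded changes. These were drawn without libraries that stood apart, so that run does not bear on single calls here.

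Every member at 0.5 CPM or more in either tissue was described with its levels. Fold change, SE and adjusted p were given for members past the threshold in a treatment or interaction comparison, for the member with the lowest p in a comparison with no call, and, between tissues, for members with a treatment call and the 4 largest differences in each direction at 1 CPM or more, without a p for members that passed the filter through 1 tissue alone. Members named beyond this rule were chosen after their values were seen. Called genes of the lists were named for some lists and comparisons only, so an unnamed list gene may still have been called. The members and gene lists were chosen with earlier results of these data known. Of 233 list entries 9 genes were not matched and 8 were matched by an older symbol. Promoter sequences are from RefSeq (GRCr8), with an entry for 33 of 43 members.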

Additional observations from a re-analysis of the deposited data

Results flagged for a closer look

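Of 174 sets of 1 member in 1 group, 8 held a library far from the others by Dixon's criterion, where chance alone gives about 1 in 20. Liver vehicle library 4 gave 4 of them. It was highest for Slc7a6os (18.8 CPM, the next 10.6) and Slc7a10 (13.4 CPM, the next 6.33), and lowest for Slc38a10 (67.7 CPM, the next 93.6) and Slc43a3 (47.2 CPM, the next 77.6). Liver weight-matched library 28 was highest for Slc1a3 (8.18 CPM, the next 3.77) and Slc43a1 (55.5 CPM, the next 42.2). In weight-matched quadriceps, library 28 was highest for Slc3a1 (19.8 CPM, the next 16.5) and library 25 for Slc3a2 (117 CPM, the next 85.4).

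The response to weight matching differed between liver and quadriceps by the interaction test for 4 members, as log2 liver minus quadriceps. The values were 1.95 for Slc7a5, -1.38 for Slc7a2, -0.83 for Slc38a3 and -0.72 for Slc43a3.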

How the results depend on the processing

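Counts of called members depended on the processing as follows. For weight matching in liver, 4 became 2 without the filter on low counts and 2 with only the 2 groups compared, and 2 to 4 with 1 library left out. In quadriceps, 2 became 1 without the filter, 1 with only the 2 groups, 3 by DESeq2 and 0 without vehicle libraries 2 and 5, and 1 to 3 with 1 library left out. For CagriSema against weight matching in liver, 0 became 1 (Slc1a4) with only the 2 groups. The interaction for weight matching went from 4 to 2 without the filter, to 2 with the replicate block and to 2 without the 4 vehicle libraries, and to 0 to 4 with 1 library left out. The tissue comparison in vehicle gave 28, with 26 to 29 when 1 library was left out and 27 with the replicate block. The other 4 comparisons gave 0 in every setting run. The causes were not tested, beyond fewer libraries or more genes in those fits.

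Counts over all genes moved by more than 1.5 times in places. Weight matching in liver gave 892 genes, and 414 with only the 2 groups. CagriSema against vehicle in liver gave 45, with 280 by DESeq2, 13 without the filter, 4 with the 2 groups and 18 without libraries 4 and 6. CagriSema against weight matching in liver gave 68, with 209 by DESeq2, 45 without the filter, 603 with the 2 groups and 590 without those libraries. In quadriceps weight matching gave 285, with 693 by DESeq2, 131 without the filter, 7 with the 2 groups and 19 without libraries 2 and 5, and CagriSema against vehicle 4, with 38 by DESeq2, 2 with the 2 groups and 0 without those libraries. CagriSema against weight matching there gave 16, with 34 by DESeq2 and 7 without the filter. The interaction for weight matching gave 389, with 783 by DESeq2, 224 without the filter and 190 without the 4 libraries, and that for CagriSema 21, with 187, 13 and 9 in the same order and 10 with the replicate block.

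For 28 single-gene results, 643 alternative values held 570 on the same side of the threshold, 72 no longer past it, 1 newly past it and 0 of opposite sign. These include tissue ratios, which all kept their call in every fit except that of Slc7a5. Some of those members passed the filter on low counts through 1 tissue alone. Results that had no call are also included. The pooled count therefore does not measure how stable the treatment and interaction calls were, whose losses are given by gene above. Liver and quadriceps libraries share 22 numbers. Same-numbered deviations correlated at -0.0045 to 0.218 (median 0.0737), 6 over 0.1, and 18 of 22 matched their own number best. Each liver library was set against the 7 or 8 quadriceps libraries of its treatment, so chance would give far fewer such matches. The matches come from the data and not from the labels, so the main fits did not take the numbers as pairing. If the numbers do mark the same rats, only the fit with the replicate block takes that into account. With the replicate block the interaction values of Slc7a2 (-1.10, adjusted p = 0.170 by edgeR) and Slc43a3 (-0.67, 0.0848) and the tissue ratio of Slc7a5 (0.75, 0.0509) were not past the threshold, and the interactions of Slc7a5 (2.04, 0.0322) and Slc38a3 (-0.95, 0.0338) were. Members with few counts, such as Slc1a7 and Slc36a2, are limited by depth.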
